A study of Mus musculus with 21 samples.

Results

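The platelet genes described here are 10 mouse genes whose products make up the granules and adhesion receptors of platelets: Pf4, Ppbp, Vwf, Mmrn1, Itga2b, Itgb3, Gp1ba, Gp1bb, Gp5 and Gp9. They were chosen by symbol and found by gene ID, and all 10 were among the 54446 genes of the read count table and among the 21100 genes tested. The counts come from 21 RNA-seq libraries of haematopoietic cells sorted from bone marrow of C57BL/6 mice at 12 weeks of age, knockout (KO) or wild type (WT) for Phf6, which encodes a chromatin protein of the PHD finger family. The groups were KO LT-HSC (3 libraries), WT LT-HSC (2), KO MPP2 (4), WT MPP2 (4), KO MPP3 (4) and WT MPP3 (4). The long-term haematopoietic stem cells (LT-HSC) stand at the top of the blood hierarchy, with the multipotent progenitors MPP2 and MPP3 below. The sources used here do not give the KO allele or the tissue in which it was made.

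Each library was made from 100 to 200 cells, which had been stained with a lineage cocktail and for Sca-1, cKit, CD150 and CD48. Flt3, which separates lymphoid-primed progenitors from MPP3, was not among the stains that the labels' protocols name. Libraries are called by group and replicate number. The number in the sample title runs from 162 to 212 in replicates 3 and 4 and in KO LT-HSC 3, and from 52 to 64 in replicates 1 and 2 of every group. What this number stands for is not given beyond the titles.

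Platelets bud from megakaryocytes, and their proteins are made in advance in that lineage. Stored in their granules are the chemokines Pf4 (CXCL4) and Ppbp (CXCL7), the adhesive glycoprotein von Willebrand factor (Vwf) and multimerin 1 (Mmrn1), which binds coagulation factor V. On the surface, Itga2b and Itgb3 form the fibrinogen receptor, while Gp1ba, Gp1bb, Gp5 and Gp9 make up the GPIb-IX-V complex that holds von Willebrand factor. In mouse marrow, Vwf is known as a marker of stem cells biased to platelets, and MPP2 as the progenitors biased to megakaryocytes and red cells.

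Coordinates are in mm10, from GENCODE M21. Pf4 (chr5:90772435-90773383, plus strand) and Ppbp (chr5:90768518-90770063, plus strand) are neighbours. Vwf (chr6:125546774-125686679), Mmrn1 (chr6:60924976-60989378) and Gp9 (chr6:87778072-87779768) lie on the plus strand of chromosome 6. Chromosome 11 carries Itga2b (chr11:102453297-102470122, minus strand), Itgb3 (chr11:104608000-104670476, plus strand) and Gp1ba (chr11:70639122-70642036, plus strand). Chromosome 16 carries Gp1bb (chr16:18620317-18622403) and Gp5 (chr16:30307685-30310779), both on the minus strand. Of the 2087 exonic bases of Gp1bb, 1902 also belong to Sept5, which is read in the same direction, so the counting could divide these reads and the values of Gp1bb are uncertain. Sept5 had 0 to 10 counts in each library.

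Most of these genes moved together across the libraries, so the sequence before their start sites is shown for 6 of them. RefSeq (GRCm38.p6) gave a start site for 8 of the 10 genes. The 250 bases before the start are given from 5′ to 3′ on the gene's strand, with capitals at GATAA, the core of the site of GATA factors, and at GGAAG, a core of ETS factor sites, on either strand (TTATC and CTTCC). Pf4 and Ppbp are shown as the neighbouring chemokine genes, Itga2b as an integrin gene, and Gp1ba, Gp5 and Gp9 as genes of 1 receptor complex.
Pf4 (chr5:90772185-90772434, plus strand): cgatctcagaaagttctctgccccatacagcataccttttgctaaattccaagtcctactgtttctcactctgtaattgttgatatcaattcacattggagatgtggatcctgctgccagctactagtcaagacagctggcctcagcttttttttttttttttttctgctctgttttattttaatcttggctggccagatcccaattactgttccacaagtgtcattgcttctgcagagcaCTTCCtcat
Ppbp (chr5:90768268-90768517, plus strand): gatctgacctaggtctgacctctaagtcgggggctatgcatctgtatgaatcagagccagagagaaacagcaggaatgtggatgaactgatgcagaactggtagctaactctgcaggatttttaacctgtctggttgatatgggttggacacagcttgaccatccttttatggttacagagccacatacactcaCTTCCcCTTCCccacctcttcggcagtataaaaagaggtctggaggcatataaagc
Itga2b (chr11:102469884-102470133, minus strand): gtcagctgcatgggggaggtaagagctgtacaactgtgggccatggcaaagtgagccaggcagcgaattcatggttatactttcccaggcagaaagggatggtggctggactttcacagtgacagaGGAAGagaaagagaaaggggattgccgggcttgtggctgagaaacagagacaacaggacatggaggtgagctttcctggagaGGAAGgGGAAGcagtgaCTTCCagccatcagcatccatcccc
Gp1ba (chr11:70638872-70639121, plus strand): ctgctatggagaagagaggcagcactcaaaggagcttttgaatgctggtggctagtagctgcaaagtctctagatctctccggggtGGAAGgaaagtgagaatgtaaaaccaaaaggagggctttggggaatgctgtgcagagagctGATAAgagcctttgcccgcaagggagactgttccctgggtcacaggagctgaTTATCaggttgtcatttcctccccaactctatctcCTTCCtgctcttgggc
Gp5 (chr16:30310782-30311031, minus strand): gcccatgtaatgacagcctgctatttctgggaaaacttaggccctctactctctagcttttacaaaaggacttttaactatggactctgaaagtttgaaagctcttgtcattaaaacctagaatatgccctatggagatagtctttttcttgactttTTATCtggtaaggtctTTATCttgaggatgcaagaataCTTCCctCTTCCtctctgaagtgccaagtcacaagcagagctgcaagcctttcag
Gp9 (chr6:87777820-87778069, plus strand): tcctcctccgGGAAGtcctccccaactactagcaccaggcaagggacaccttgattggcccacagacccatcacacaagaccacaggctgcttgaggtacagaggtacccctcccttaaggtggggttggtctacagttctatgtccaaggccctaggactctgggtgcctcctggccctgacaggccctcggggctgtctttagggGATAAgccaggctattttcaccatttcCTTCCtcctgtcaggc
The GATAA core was present in 4 of the 8 genes, against 22.6% of all 32851 RefSeq windows of the same length. It began 103 and 51 bases before the start of Gp1ba, 93 and 77 bases before that of Gp5, and 43 bases before that of Gp9. The fourth gene was Mmrn1, whose RefSeq start differs from the GENCODE start, so that its window (chr6:60944067-60944316) lies inside the gene given above. The Itga2b window also lies mostly inside its GENCODE gene. The GGAAG core was present in 8 of 8, against 64.1% of all windows. The 2 motifs did not overlap in these windows, and a match says only that the letters are there.

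Total counts ran from 18892723 to 31611366 per library, and 20260 to 28501 genes had at least 1 count. Levels are in CPM, in which the counts of a library are set relative to its total after adjustment by TMM factors, and a count of 3, taken as the detection floor, stood for 0.0985 to 0.194 CPM. Phf6 had 2.45 to 13.3 CPM in the 11 KO libraries and 54.4 to 209.7 CPM in the 10 WT libraries. Of the genes behind the sort, Slamf1 (CD150) had a median of 57.9 CPM in the LT-HSC, of 48.3 CPM in the MPP2 and of 0.284 CPM in the MPP3 libraries, and Cd48 had medians of 7.44, 430.3 and 526.8 CPM. Ly6a, the gene of the Sca-1 stain, went against the label in the 4 MPP2 libraries titled 162 to 211, with 5.74 to 31.3 CPM, whereas the 4 MPP2 libraries titled 52 to 63 had 158 to 1429 CPM, the LT-HSC libraries 171 to 359 CPM and the MPP3 libraries 48.2 to 700 CPM. For the 10 members, comparisons of MPP2 with LT-HSC and MPP3 are therefore also given without these 4 libraries, as the fits within 52 to 64. Fold changes of other genes, and the counts for the lists of further platelet genes, include these 4 libraries wherever MPP2 is set against another population. Flt3 reached 645 to 1262 CPM in MPP3. In 3 libraries over 10% of the counts fell on immunoglobulin genes (KO MPP2 1 and KO MPP3 1) or on rRNA genes (KO MPP3 2).

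Across the populations, all 10 genes had lower means in MPP3 than in LT-HSC and in MPP2, in both genotypes. Mmrn1 was far higher in LT-HSC than in MPP2, whereas the MPP2 libraries of the other 9 genes spread from low to high. KO and WT differed past the threshold for none of the 10. These are bulk samples, in which fewer cells that carry a transcript and less of it per cell cannot be told apart.

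**Figure D1:**
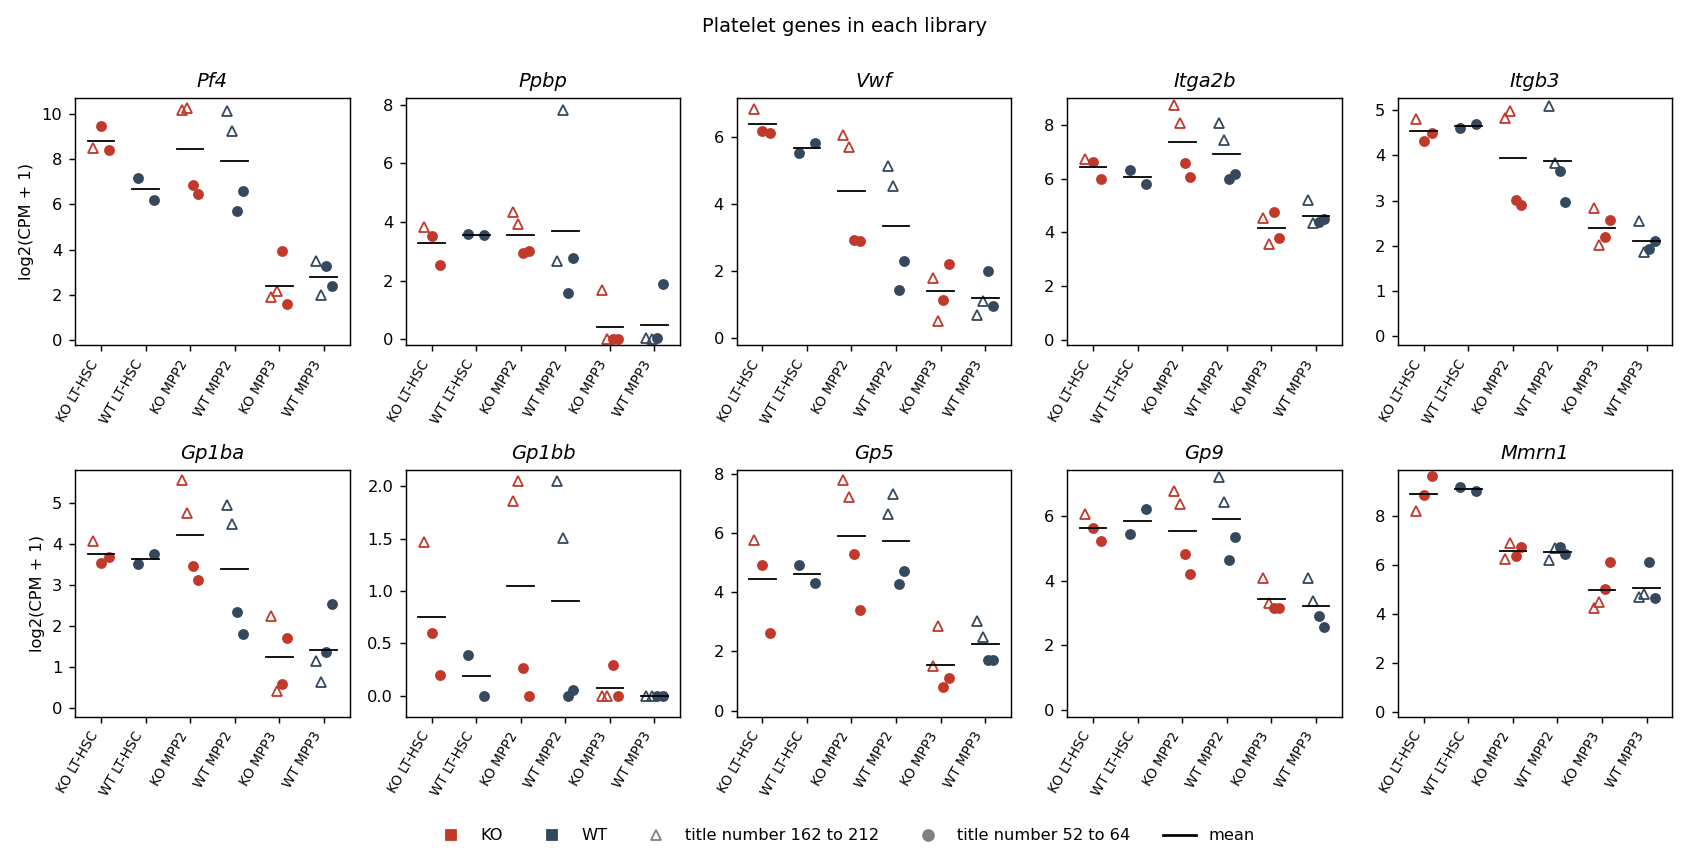
Levels of the 10 platelet genes as log2(CPM + 1) in each library, by group, with KO in red and WT in blue. Triangles are libraries titled 162 to 212, circles those titled 52 to 64, and lines are group means of the log values. In MPP2 the triangles of 9 genes have a higher mean than the circles, whereas those of Mmrn1 do not, and MPP3 is lowest for each gene.

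Among the granule proteins, Pf4 had the highest median level per kilobase of exon in both LT-HSC (468 CPM) and MPP2 (505 CPM). Its levels were 338, 701 and 358 CPM in KO LT-HSC, against 73.1 and 142 CPM in WT LT-HSC. In MPP2 it had 88.3, 116, 1222 and 1165 CPM in KO and 94.6, 52.1, 612 and 1127 CPM in WT. In MPP3 it had 2.04, 14.3, 3.47 and 2.81 CPM in KO and 4.32, 8.60, 3.03 and 10.2 CPM in WT. Every LT-HSC and MPP2 library thus lay above every MPP3 library, and in each genotype the MPP2 libraries fell into a low and a high pair. Within a genotype, 6.73% of all genes tested in KO and 14.2% in WT had LT-HSC above MPP3 without overlap. For MPP2 above MPP3 the shares were 3.59% and 5.33%.

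Ppbp, the gene next to Pf4, was far lower also per kilobase, with a median of 6.38 CPM in MPP2. Its levels were 4.78, 10.4 and 13.4 CPM in KO LT-HSC, against 10.8 and 10.9 CPM in WT LT-HSC. KO MPP2 libraries had 7.10, 6.72, 14.1 and 19.0 CPM, and WT MPP2 libraries 5.80, 1.959, 227 and 5.33 CPM. In MPP3, KO libraries had 0, 0, 0 and 2.17 CPM, and WT libraries 2.65, 0.0350, 0 and 0.0362 CPM. The 227 CPM of WT MPP2 3 were 6924 counts, whereas the other 3 WT MPP2 libraries lay between 1.959 and 5.80 CPM. Pf4 in the same library had 612 CPM, below the 1127 CPM of WT MPP2 4 and above the other two.

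Vwf had 69.4, 71.2 and 114 CPM in KO LT-HSC, against 55.3 and 44.9 CPM in WT LT-HSC. Its MPP2 levels were 6.46, 6.55, 51.2 and 65.4 CPM in KO and 3.91, 1.71, 22.2 and 34.4 CPM in WT. Its MPP3 levels were 3.60, 1.20, 0.416 and 2.45 CPM in KO and 0.937, 3.01, 1.16 and 0.615 CPM in WT. Vwf was therefore highest in LT-HSC, with no overlap between LT-HSC and MPP2 within a genotype. Of all genes tested, 7.62% in KO and 15.3% in WT had LT-HSC above MPP2 without overlap. Vwf is also a gene of endothelial cells, and Cdh5, which defines those cells, had a median of 0.105 CPM in the LT-HSC, of 0.0380 CPM in the MPP2 and of 0.0896 CPM in the MPP3 libraries. Cdh5 was highest in KO LT-HSC 1, at 5.21 CPM, and its maxima among the MPP2 and MPP3 libraries were 2.20 and 1.65 CPM. Kdr and Stab2, also endothelial genes, reached 19.7 and 5.71 CPM in LT-HSC. The 10 endothelial markers, some of which stem cells also express, summed to 220 to 358 CPM in KO LT-HSC, 263 to 309 CPM in WT LT-HSC, 141 to 270 CPM in the MPP2 and 258 to 390 CPM in the MPP3 libraries. The part of endothelial cells in the Vwf levels was not tested.

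Mmrn1 followed another pattern. It had 775, 458 and 289 CPM in KO LT-HSC, against 514 and 573 CPM in WT LT-HSC. In MPP2 the levels were 105, 81.4, 118 and 75.0 CPM in KO and 86.6, 106, 101 and 73.0 CPM in WT. In MPP3 they were 69.0, 31.2, 20.98 and 17.99 CPM in KO and 23.7, 67.8, 26.6 and 25.0 CPM in WT. The LT-HSC, MPP2 and MPP3 libraries formed 3 ranges in that order, with no overlap between any pair of them, and within MPP2 the 8 libraries lay close together.

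Of the fibrinogen receptor, the alpha subunit Itga2b had 63.0, 97.4 and 105 CPM in KO LT-HSC, against 55.5 and 78.1 CPM in WT LT-HSC. Its MPP2 levels were 66.4, 94.2, 268 and 427 CPM in KO and 71.7, 62.7, 174 and 272 CPM in WT. In MPP3 they were 12.99, 26.2, 10.8 and 22.4 CPM in KO and 21.8, 20.2, 19.4 and 35.4 CPM in WT. MPP3 was again apart from both other populations, but it kept a level well above the detection floor.

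The beta subunit Itgb3 had 21.5, 19.0 and 27.2 CPM in KO LT-HSC, against 25.1 and 23.4 CPM in WT LT-HSC. For MPP2 the levels were 6.52, 7.12, 30.6 and 27.5 CPM in KO and 6.81, 11.5, 13.2 and 33.5 CPM in WT. In MPP3 it ran from 3.02 to 6.11 CPM in KO and from 2.64 to 4.88 CPM in WT. Its LT-HSC libraries lay within the range of the MPP2 libraries, and all of both populations were above MPP3.

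In the GPIb-IX-V complex, Gp5, the subunit that thrombin cleaves, had 5.21, 28.9 and 53.3 CPM in KO LT-HSC, against 18.7 and 29.0 CPM in WT LT-HSC. For MPP2 they were 9.43, 38.1, 146 and 219 CPM in KO and 25.2, 18.5, 159 and 98.4 CPM in WT. For MPP3 they were 1.13, 0.740, 6.17 and 1.81 CPM in KO and 2.28, 2.31, 4.58 and 7.24 CPM in WT. KO LT-HSC 1 fell below the highest MPP3 libraries, so that LT-HSC and MPP3 overlapped for this gene.

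Gp9, the small subunit that brings the complex to the surface, had 36.2, 48.8 and 65.9 CPM in KO LT-HSC, against 73.9 and 42.4 CPM in WT LT-HSC. In MPP2 it had 17.4, 27.3, 82.0 and 109 CPM in KO and 39.9, 23.8, 85.0 and 145 CPM in WT. In MPP3 it had 7.95, 7.97, 9.02 and 15.8 CPM in KO and 4.93, 6.54, 9.30 and 15.9 CPM in WT. Its MPP3 libraries were below all others.

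Gp1ba, the subunit that binds von Willebrand factor, had 12.0, 10.7 and 15.8 CPM in KO LT-HSC, against 12.5 and 10.5 CPM in WT LT-HSC. In MPP2 it had 7.81, 10.03, 26.0 and 46.2 CPM in KO and 2.50, 4.08, 21.5 and 30.3 CPM in WT. In MPP3 it ran from 0.347 to 3.80 CPM in KO and from 0.564 to 4.85 CPM in WT. LT-HSC lay between the low and the high MPP2 libraries in both genotypes.

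Gp1bb, which is linked to Gp1ba in the complex, had the lowest median level per kilobase of the 10 in LT-HSC and MPP2. It had 4, 15 and 53 counts in KO LT-HSC and 0 and 9 counts in WT LT-HSC. In MPP2 it had 0, 5, 89 and 74 counts in KO and 1, 0, 56 and 75 counts in WT. In MPP3 it had 0, 4, 0 and 0 counts in KO and 0 in each of the 4 WT libraries. A level above the floor of 3 counts was thus seen in all 4 MPP2 libraries of the higher title numbers, in all KO LT-HSC libraries and in 1 WT LT-HSC library, and otherwise only in KO MPP2 2 and KO MPP3 2. No fold is given for it against MPP3.

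Set per kilobase of exon, the genes of 1 complex were not at 1 level. In MPP2 the median levels per kilobase were 69.2 CPM for Gp9, 31.1 CPM for Gp5, 5.80 CPM for Gp1ba and 0.489 CPM for Gp1bb. In LT-HSC they were 55.3, 13.2, 4.40 and 0.147 CPM, so the order of the 4 was the same. For the fibrinogen receptor, Itga2b had a median of 24.6 CPM per kilobase in MPP2 and Itgb3 2.09 CPM. The corresponding medians in LT-HSC were 14.3 and 3.96 CPM per kilobase. Of all 10 genes, Pf4 had the highest median level per kilobase in LT-HSC (468 CPM) and MPP2 (505 CPM), and Gp9 in MPP3 (9.64 CPM, against 5.40 CPM for Pf4).

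The first comparison between populations asked which platelet genes differ between stem cells and MPP3. In KO, 6 of the 10 were higher in LT-HSC than in MPP3 past the threshold of an adjusted p of 0.05 (edgeR quasi-likelihood test, Benjamini-Hochberg over 21100 genes), against 1.56% of all genes tested called higher. Pf4 averaged 466 ± 204 CPM in KO LT-HSC (SD, n = 3) and 5.65 ± 5.78 CPM in KO MPP3 (SD, n = 4), a log2 fold change of 6.38 ± 1.20 (SE, adjusted p = 0.00630). Vwf averaged 84.9 ± 25.2 and 1.92 ± 1.40 CPM in the same groups, a log2 fold change of 5.46 ± 1.03 (adjusted p = 0.00500). Mmrn1 averaged 508 ± 247 and 34.8 ± 23.5 CPM, a log2 fold change of 3.87 ± 0.457 (adjusted p = 5.47e-05). These 3 calls held without any 1 of the 7 libraries.

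The other calls between KO LT-HSC and KO MPP3 were those of Itga2b (2.29 ± 0.559, adjusted p = 0.0304), Itgb3 (2.35 ± 0.541, adjusted p = 0.0212) and Gp9 (2.30 ± 0.606, adjusted p = 0.0470). Each was lost without some libraries by edgeR: Itga2b without KO LT-HSC 2 or 3 or KO MPP3 1, 3 or 4 (adjusted p = 0.0602 to 0.0917), Itgb3 without KO LT-HSC 1 or 3 or KO MPP3 2 or 3 (0.0541 to 0.0699), and Gp9 without any 1 of the 7 (0.0580 to 0.147). Gp1ba, Gp5 and Ppbp missed the threshold, with log2 fold changes of 2.87 ± 0.909, 3.54 ± 1.004 and 4.07 ± 1.78. With the mouse as a block, Gp5 passed it as well (3.92 ± 0.628, adjusted p = 0.00465).

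In WT, 3 of the 10 genes were called higher in LT-HSC than in MPP3, against 0.720% of all genes tested. Mmrn1 averaged 544 ± 41.8 CPM in WT LT-HSC (SD, n = 2) and 35.7 ± 21.4 CPM in WT MPP3 (SD, n = 4), a log2 fold change of 3.93 ± 0.481 (adjusted p = 2.24e-04), and its call held without any 1 library. Vwf averaged 50.1 ± 7.34 and 1.43 ± 1.08 CPM, a log2 fold change of 5.12 ± 1.05 (adjusted p = 0.0198). Itgb3 averaged 24.2 ± 1.21 and 3.41 ± 1.02 CPM, a log2 fold change of 2.83 ± 0.585 (adjusted p = 0.0203). Both were lost by edgeR without WT LT-HSC 1 or 2, WT MPP3 1 or WT MPP3 3, Vwf also without WT MPP3 4 and Itgb3 without WT MPP3 2 (adjusted p = 0.0651 to 0.124 for Vwf and 0.0576 to 0.160 for Itgb3). Gp9 missed the threshold narrowly (2.67 ± 0.654, adjusted p = 0.0550), and Pf4 did so with 4.04 ± 1.14 (adjusted p = 0.128). With the mouse as a block, Gp9 (3.46 ± 0.436, adjusted p = 0.00236) and Gp5 (3.66 ± 0.643, adjusted p = 0.0166) passed.

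**Figure D2:**
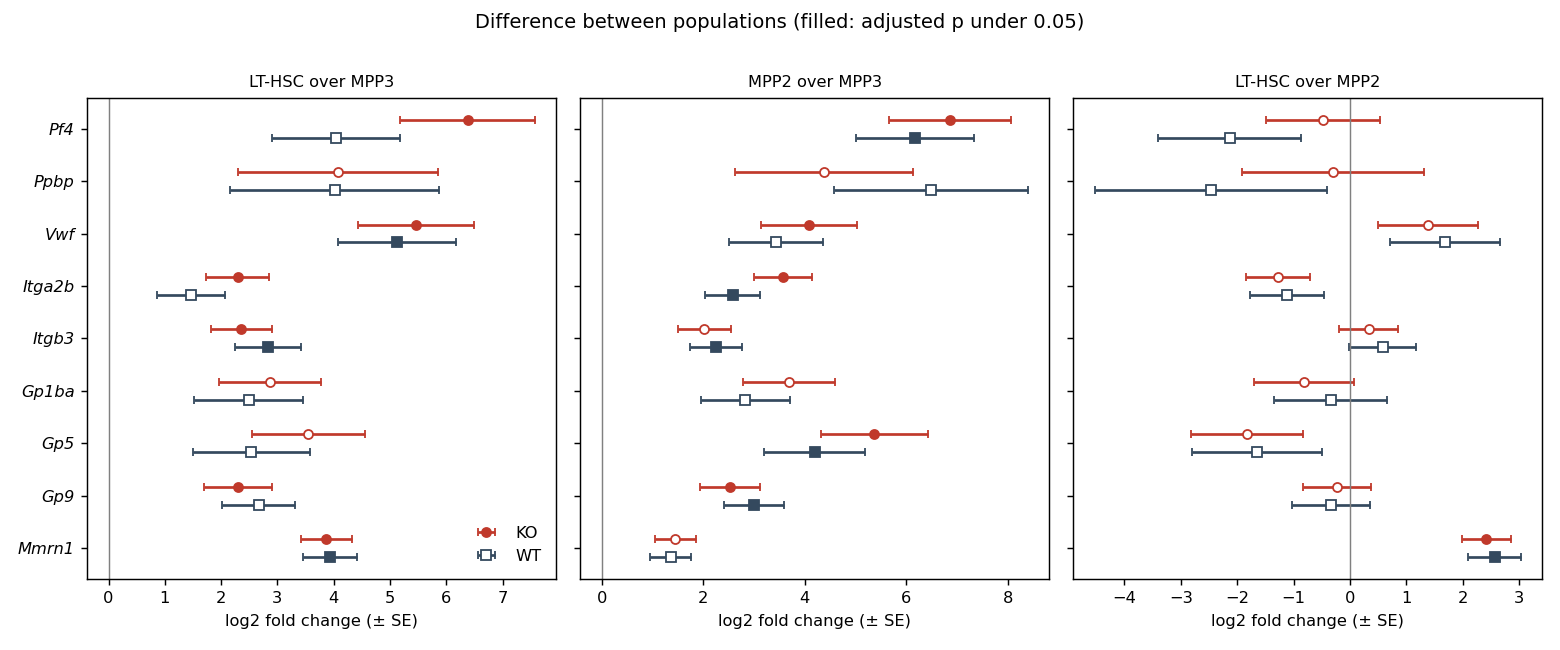
Fitted log2 fold changes ± SE between populations for 9 platelet genes, with KO as red circles above WT as blue squares; Gp1bb is left out for its counts of 0. Filled symbols passed an adjusted p of 0.05. Every gene lies right of 0 against MPP3, and in LT-HSC over MPP2 the filled symbols are those of Mmrn1, at 2.42 in KO and 2.57 in WT.

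MPP2 was set against MPP3, the other progenitor. In KO, 5 of the 10 genes were called higher in MPP2, against 0.526% of all genes tested. Pf4 averaged 648 ± 631 CPM in KO MPP2 and 5.65 ± 5.78 CPM in KO MPP3 (SD, n = 4 each), a log2 fold change of 6.85 ± 1.20 (adjusted p = 0.0160). Itga2b averaged 214 ± 168 and 18.1 ± 7.37 CPM, with 3.57 ± 0.564 (adjusted p = 0.00986), and was the only call here that held without any 1 library. Gp5 (5.36 ± 1.06, adjusted p = 0.0218), Vwf (4.08 ± 0.948, adjusted p = 0.0466) and Gp9 (2.53 ± 0.585, adjusted p = 0.0459) were the other calls. By edgeR, Pf4 was lost without KO MPP2 3 or 4 or KO MPP3 4 (adjusted p = 0.0515 to 0.0543), and Gp5 without KO MPP2 3 or 4 or KO MPP3 1, 2 or 4 (0.0578 to 0.0727). Vwf (0.0739 to 0.151) and Gp9 (0.0712 to 0.172) were lost without KO MPP2 3 or 4 or any 1 KO MPP3 library.

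In WT, 5 genes were called higher in MPP2 than in MPP3, against 0.981% of all genes tested. Pf4 averaged 471 ± 506 CPM in WT MPP2 and 6.55 ± 3.42 CPM in WT MPP3 (SD, n = 4 each), a log2 fold change of 6.17 ± 1.17 (adjusted p = 0.0176). Gp5 had 4.19 ± 0.996 (adjusted p = 0.0451), Gp9 3.001 ± 0.597 (adjusted p = 0.0200), Itga2b 2.58 ± 0.540 (adjusted p = 0.0256) and Itgb3 2.25 ± 0.518 (adjusted p = 0.0392). None of these calls held by edgeR without every library: Pf4 was lost without any 1 WT MPP3 library (adjusted p = 0.0555 to 0.0749), and Gp9 without WT MPP2 4 or WT MPP3 1, 2 or 3 (0.0555 to 0.0860). Itga2b (0.0609 to 0.110), Itgb3 (0.0687 to 0.179) and Gp5 (0.110 to 0.144) were lost without WT MPP2 3 or 4 or any 1 WT MPP3 library. Mmrn1 missed the threshold in both genotypes, with 1.45 ± 0.405 in KO (adjusted p = 0.103) and 1.36 ± 0.404 in WT (adjusted p = 0.114). With the mouse as a block it passed in both, with 1.64 ± 0.290 in KO (adjusted p = 0.0157) and 1.47 ± 0.285 in WT (adjusted p = 0.0267), while Vwf did not pass in KO (3.71 ± 1.11, adjusted p = 0.124).

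Between LT-HSC and MPP2, Mmrn1 was the single member called in either genotype. It averaged 508 ± 247 CPM in KO LT-HSC (SD, n = 3) and 95 ± 20.3 CPM in KO MPP2 (SD, n = 4), a log2 fold change of 2.42 ± 0.435 (adjusted p = 0.00608), against 1.05% of all genes tested called higher. In WT it averaged 544 ± 41.8 CPM in LT-HSC (SD, n = 2) and 91.7 ± 15.0 CPM in MPP2 (SD, n = 4), a log2 fold change of 2.57 ± 0.468 (adjusted p = 0.0181), against 0.265% called higher. The KO call held without any 1 library, and the WT call was lost by edgeR without WT LT-HSC 1 (adjusted p = 0.205), WT LT-HSC 2 (0.184) or WT MPP2 4 (0.0567). The other 9 genes had log2 fold changes of -1.82 to 1.39 in KO and of -2.997 to 1.69 in WT. Vwf and Itgb3 were positive in both genotypes, and the other 7 genes were negative in both. None of these 9 was called, and of the 7 only Itga2b and Gp5 stayed negative in both genotypes under each block. With the mouse as a block, Pf4, Gp1bb and Gp9 in KO (0.07 to 0.18) and Ppbp, Gp1ba, Gp1bb and Gp9 in WT (0.19 to 1.07) turned positive. With the replicate number as a block, Pf4, Ppbp, Gp1bb and Gp9 in KO (0.20 to 0.49) and Gp1ba and Gp9 in WT (0.44 and 0.62) did so. Over all alternatives, Pf4 ran from -1.74 to 2.35 in KO and from -2.65 to 0.55 in WT.

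By mean CPM, each gene had the same order of populations in both genotypes. Mmrn1, Vwf and Itgb3 ran from LT-HSC through MPP2 to MPP3. The other 7 genes ran from MPP2 through LT-HSC to MPP3. For Ppbp in WT this rested on WT MPP2 3, without which the log2 fold change of LT-HSC over MPP2 was 1.32, against -2.47 with it. By the mean of log2(CPM + 1), LT-HSC came before MPP2 also for Pf4 and Gp9 in KO and for Gp1ba in WT. Within 52 to 64, mean CPM was higher in LT-HSC than in MPP2 for Pf4, Ppbp, Gp9, Gp1ba and Gp1bb in both genotypes. Pf4 averaged 519 and 102 CPM there in KO, and 107.5 and 73.3 CPM in WT. Gp9 averaged 42.5 and 22.3 CPM in KO, and 58.1 and 31.8 CPM in WT. Itga2b was nearly level, and Gp5 was higher in MPP2 in KO and in LT-HSC in WT. Over all libraries, each step separated those of Mmrn1 without overlap. Of all genes tested, 7.62% in KO and 15.3% in WT had LT-HSC above MPP2 without overlap, and 3.59% and 5.33% MPP2 above MPP3. For the other 9 genes LT-HSC and MPP2 did not differ past the threshold, although the LT-HSC libraries of Vwf lay above the MPP2 libraries of their genotype.

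The spread in MPP2 followed the number in the sample title. Setting the 4 MPP2 libraries titled 162 to 211 (KO 3 and 4, WT 3 and 4) against the 4 titled 52 to 63 (KO 1 and 2, WT 1 and 2), averaged over genotype, gave 7 of the 10 genes as higher past the threshold. Of all genes tested, 1.80% were called higher and 4.51% lower in this comparison, which was chosen with its pattern known. The median log2 fold change was 2.62 over the 10 genes and -0.11 over all genes.

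Pf4 averaged 1031 ± 282 CPM in the MPP2 libraries titled 162 to 211 and 87.7 ± 26.5 CPM in those titled 52 to 63 (SD, n = 4 each), a log2 fold change of 3.56 ± 0.543 (edgeR adjusted p = 0.00161). Vwf averaged 43.3 ± 18.9 and 4.66 ± 2.31 CPM, with 3.25 ± 0.506 (adjusted p = 0.00179). Gp9 averaged 105 ± 29.1 and 27.1 ± 9.47 CPM, with 1.97 ± 0.295 (adjusted p = 0.00130). These 3 genes did not overlap between the title numbers, and neither did Itga2b, Itgb3, Gp1ba, Gp1bb and Gp5, which makes 8 of 10 genes higher without overlap, against 5.47% of all genes tested.

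Itga2b had a log2 fold change of 1.92 ± 0.306 between these MPP2 libraries (adjusted p = 0.00211), Itgb3 1.72 ± 0.339 (adjusted p = 0.00783), Gp5 2.75 ± 0.532 (adjusted p = 0.00710) and Gp1ba 2.50 ± 0.615 (adjusted p = 0.0257). The 6 calls other than that of Gp1ba held without any 1 MPP2 library. Gp1ba was lost by edgeR without KO MPP2 1, 2 or 4 or WT MPP2 1, 2 or 4 (adjusted p = 0.0515 to 0.117). Gp1bb had 56 to 89 counts in the libraries titled 162 to 211 and 0 to 5 counts in those titled 52 to 63, and missed the threshold (adjusted p = 0.0554). Ppbp rested on WT MPP2 3 and missed it as well (3.08 ± 1.19, adjusted p = 0.148), with a log2 fold change of 0.86 without that library. Mmrn1 averaged 91.9 ± 21.9 CPM in the libraries titled 162 to 211 and 94.8 ± 12.6 CPM in those titled 52 to 63, a log2 fold change of -0.05 with a 95% interval from -0.65 to 0.56.

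**Figure D3:**
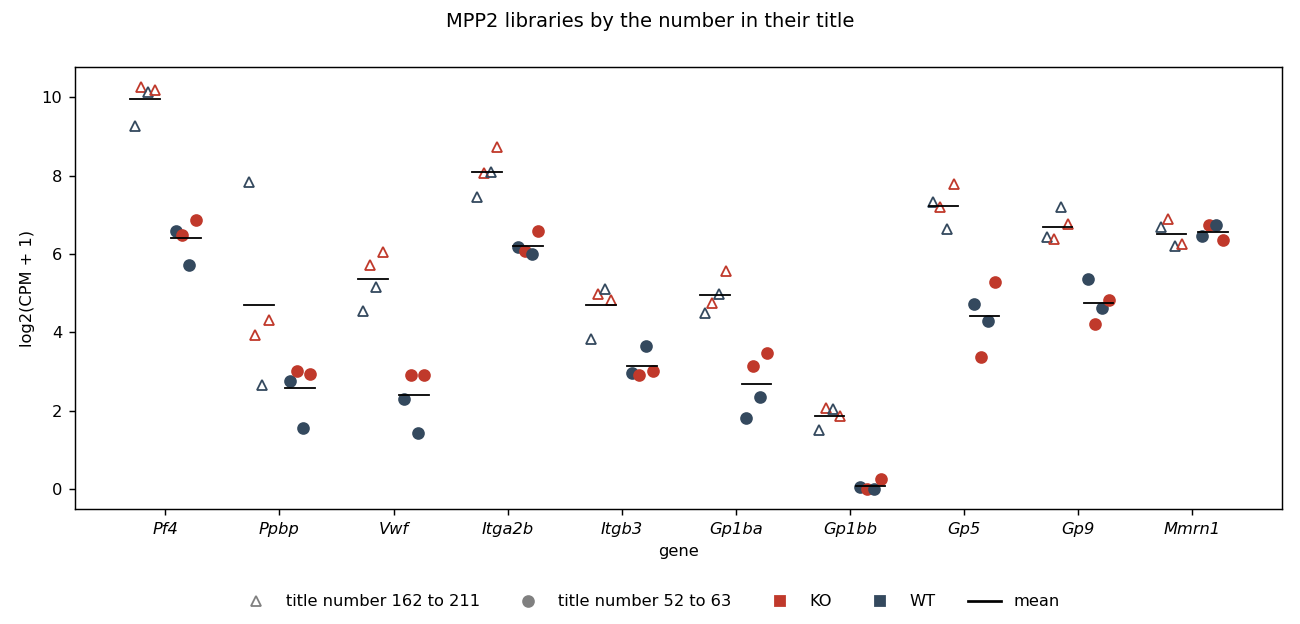
Levels of the 10 platelet genes as log2(CPM + 1) in the 8 MPP2 libraries, with triangles for title numbers 162 to 211 to the left of circles for 52 to 63, KO in red and WT in blue, and lines at the means of the log values. The groups do not overlap for 8 genes. They overlap for Ppbp, where WT MPP2 3 stands at 227 CPM, and for Mmrn1, whose means are 91.9 and 94.8 CPM.

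Markers of other cells moved with the title number in MPP2, as did Ly6a (above). The 6 lymphoid progenitor markers, Flt3 and Dntt among them, summed to 15.1 to 67.5 CPM in the libraries titled 162 to 211 and to 225 to 1729 CPM in those titled 52 to 63, with Il7r and Rag1 at 0 in all 4 libraries titled 162 to 211. The 9 B and plasma cell markers summed to 50.6 to 95.3 CPM and to 19718 to 750214 CPM in the same order, and the 8 LT-HSC markers to 274 to 376 CPM and 529 to 1874 CPM. The 8 neutrophil markers summed to 5.21 to 34.0 CPM in the libraries titled 162 to 211, with Mmp8 and Retnlg at 0, and to 27.1 to 15022 CPM in those titled 52 to 63. The 12 erythroid markers summed to 4460 to 6455 CPM and to 2650 to 4790 CPM. Most of this was Car1 (medians 2112 and 717 CPM) and Car2 (2817 and 2156 CPM), and the ranges of Car2 overlapped. The medians of Hbb-bt (4.16 and 11.8 CPM), Hbb-bs, Hba-a2 and Alas2 were lower in the libraries titled 162 to 211, and those of the other erythroid markers higher. Slamf1, the gene of the CD150 stain, ran from 59.6 to 80.1 CPM in the libraries titled 162 to 211 and from 9.18 to 37.0 CPM in the others. The part of these cells in the difference of the platelet genes was not tested.

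In MPP3 the same numbers parted Gp9 and, within each genotype, Gp5, but not the other members in both genotypes. Gp9 ran from 9.02 to 15.9 CPM in the MPP3 libraries of the higher numbers and from 4.93 to 7.97 CPM in the others. Gp5 had 6.17 and 1.81 CPM in KO MPP3 3 and 4 and 1.13 and 0.740 CPM in KO MPP3 1 and 2, and 4.58 and 7.24 CPM in WT MPP3 3 and 4 and 2.28 and 2.31 CPM in WT MPP3 1 and 2. Pf4 averaged 3.14 CPM in the KO libraries titled 165 and 210 and 8.16 CPM in those titled 55 and 62, and 6.63 and 6.46 CPM in the corresponding WT libraries. Itga2b averaged 16.6 and 19.6 CPM in these KO libraries and 27.4 and 20.99 CPM in the WT ones. KO LT-HSC 3 was the single LT-HSC library of the higher numbers. It was the highest of the 3 KO LT-HSC libraries for Vwf, with 114 CPM against 69.4 and 71.2 CPM, and for Gp5, with 53.3 CPM against 5.21 and 28.9 CPM. Its 358 CPM of Pf4 lay between the other two, and its 289 CPM of Mmrn1 was the lowest of the 3. The shares of all genes that followed the title numbers in this way in MPP3 or in KO LT-HSC are not given here. Whether the difference by title number was larger in MPP2 than elsewhere was not tested.

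The comparisons between populations were therefore repeated within the title numbers. Within 162 to 212, 8 of the 10 genes were called between MPP2 and MPP3 in KO and 9 in WT, and within 52 to 64 there were 0 in either genotype. Mean CPM within 52 to 64 was still higher in MPP2 than in MPP3 for every member but Gp1bb in KO. Pf4 averaged 102 and 8.16 CPM there in KO, and 73.3 and 6.46 CPM in WT. Within 52 to 64, Vwf was called higher in LT-HSC than in MPP2, with 3.43 ± 0.718 in KO (edgeR adjusted p = 0.0442) and 4.15 ± 0.746 in WT (adjusted p = 0.0265), as was Mmrn1 with 2.73 ± 0.462 in KO and 2.50 ± 0.457 in WT. Between LT-HSC and MPP3 within 52 to 64, 7 genes were called in KO and 5 in WT. The share of all genes called in each of these fits is not given here. Over all alternatives, MPP2 against MPP3 called 6 to 931 of all genes in KO and 2 to 921 in WT. LT-HSC against MPP3 called 298 to 1538 in KO and 52 to 1656 in WT.

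KO was then compared with WT, the question of the study's design. None of the 10 genes passed the threshold in LT-HSC, MPP2 or MPP3, and none had an unadjusted p under 0.05 (edgeR). The calls over all 21100 genes numbered 1 (0.00474%) for LT-HSC, 3 (0.0142%) for MPP2 and 2 (0.00948%) for MPP3, while 513, 1417 and 1185 genes had an unadjusted p under 0.05. DESeq2 and limma voom also called 0 of the 10 genes in each population.

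**Figure D4:**
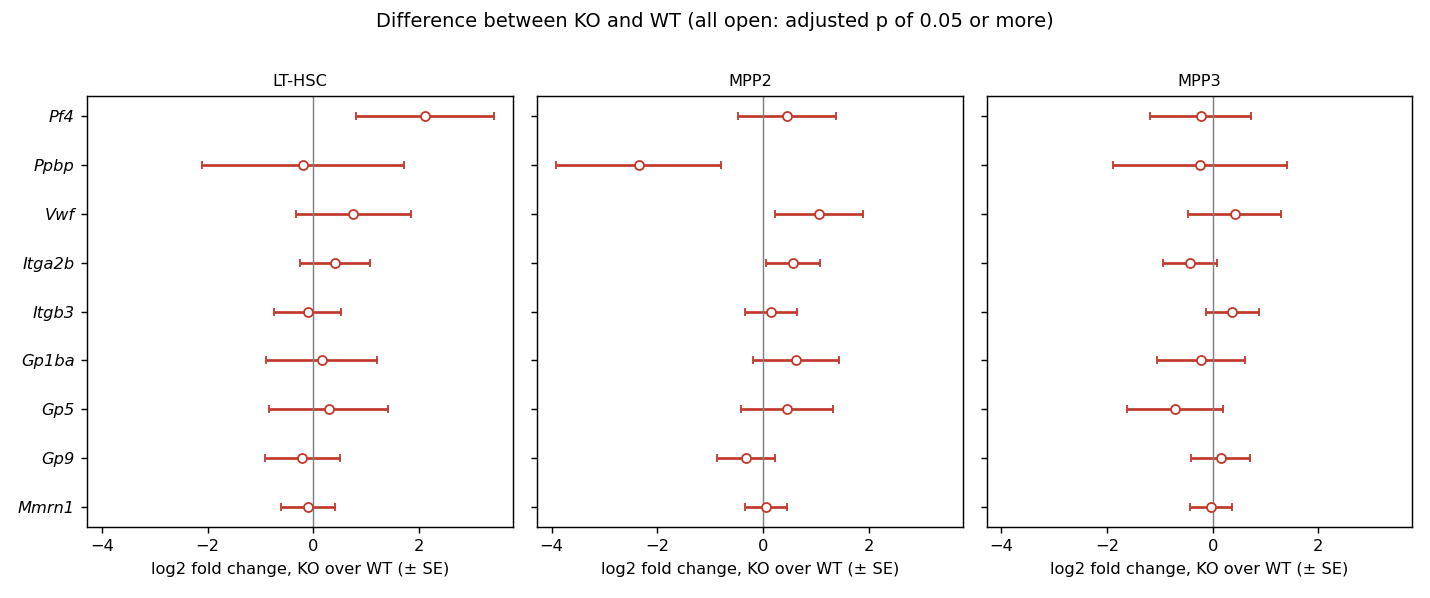
Fitted log2 fold changes of KO over WT ± SE in LT-HSC, MPP2 and MPP3 for 9 platelet genes; Gp1bb is left out for its counts of 0. All symbols are open, since none passed an adjusted p of 0.05, and the farthest from 0 are Pf4 in LT-HSC, at 2.11, and Ppbp in MPP2, at -2.35.

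In LT-HSC, Pf4 averaged 466 ± 204 CPM in KO (SD, n = 3) and 107 ± 48.6 CPM in WT (SD, n = 2), with every KO library above both WT libraries. Its log2 fold change was 2.11 ± 1.30, with a 95% interval from -0.44 to 4.66 (edgeR adjusted p = 1), and it ran from 1.69 to 2.67 under the 14 alternatives. Vwf also lay higher in every KO library, with 84.9 ± 25.2 CPM in KO and 50.1 ± 7.34 CPM in WT, a log2 fold change of 0.76 ± 1.09. These were 2 of 10 genes with KO above WT without overlap, against 7.53% of all genes tested. Mmrn1 averaged 508 ± 247 CPM in KO and 544 ± 41.8 CPM in WT, with a log2 fold change of -0.10 ± 0.510 and a 95% interval from -1.10 to 0.90. The other 7 genes overlapped between KO and WT LT-HSC. The 8 neutrophil markers summed to 15.5 and 4489 CPM in the 2 WT LT-HSC libraries and to 6.77 to 58.25 CPM in KO LT-HSC. The part of neutrophils in these levels was not tested.

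In MPP2, KO and WT overlapped for all 10 genes, where 1.43% of all genes tested had KO above WT and 1.08% KO below WT without overlap. Pf4 had a log2 fold change of 0.46 ± 0.930, Itga2b of 0.56 ± 0.510 and Vwf of 1.06 ± 0.837, with adjusted p values of 0.996, 0.927 and 0.900. Within each set of title numbers, Vwf was higher in both KO libraries than in both WT libraries, with means of 58.3 CPM in KO and 28.3 CPM in WT for 162 to 212 and of 6.50 and 2.81 CPM for 52 to 64. It was nevertheless not called within either set, and the share of all genes that parted in this way is not given here. Ppbp had a log2 fold change of -2.35 ± 1.56, which became 1.43 without WT MPP2 3.

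In MPP3, KO and WT overlapped for all 10 genes as well, with 1.07% of all genes tested above and 1.62% below without overlap. The log2 fold changes of the 9 genes other than Gp1bb ran from -0.72 for Gp5 to 0.42 for Vwf. Mmrn1 had 34.8 ± 23.5 CPM in KO and 35.7 ± 21.4 CPM in WT (SD, n = 4 each), a log2 fold change of -0.04 ± 0.398 with a 95% interval from -0.82 to 0.74.

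A test of whether the KO effect differed between LT-HSC, MPP2 and MPP3 called 0 of the 10 genes and 0 of all 21100 (edgeR), with 704 genes and 0 of the 10 at an unadjusted p under 0.05. Under the alternatives, DESeq2 and limma voom included, it called 0 or 1 of all genes.

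The wider platelet programme was read from 4 lists, which were chosen with earlier results of these data known. KO and WT differed past the threshold for 0 genes of each list in each population. Of the 33 receptors and signalling genes, 11 were higher and 1 lower in KO LT-HSC than in KO MPP3, and 6 were higher and 1 lower in WT LT-HSC than in WT MPP3. Of all genes tested, 1.09% in KO and 0.379% in WT were called lower there, beside the shares called higher given above. The median log2 fold change of the list was 0.98 in KO and 0.40 in WT, and that of all genes -0.03 in each. Tbxas1, the thromboxane synthase, was higher in LT-HSC by a log2 fold change of 2.16 ± 0.203 in KO and 1.95 ± 0.220 in WT (edgeR).

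Between MPP2 and MPP3, 8 receptors and signalling genes were higher and 0 lower in KO, and 7 were higher and 1 lower in WT, where 0.360% and 0.218% of all genes tested were called lower. The list had medians of 1.09 and 0.71 on the log2 scale, and all genes 0.02 and -0.02. F2rl2, the thrombin receptor PAR3, averaged 72.2 ± 62.6 CPM in KO MPP2 and 3.45 ± 0.671 CPM in KO MPP3, a log2 fold change of 4.39 ± 0.766 (adjusted p = 0.0140), and it had 4.30 ± 0.763 in WT (adjusted p = 0.0110). Ptgs1, cyclooxygenase 1, had 2.03 ± 0.308 in KO and 1.73 ± 0.305 in WT. Tbxas1 was also higher in LT-HSC than in MPP2, with 1.31 ± 0.200 in KO and 1.58 ± 0.220 in WT.

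Of the 13 further granule cargo genes tested, 3 were higher in KO LT-HSC than in KO MPP3 and 1 in WT, with 0 lower. Of all genes tested, 1.56% in KO and 0.720% in WT were called higher there, and 1.09% and 0.379% lower. Cd63, a granule membrane protein that many other cells carry, was called in both, with 1.93 ± 0.209 in KO and 1.40 ± 0.228 in WT. Of the 17 genes of the proplatelet cytoskeleton and granule biogenesis tested, 3 were higher and 1 lower in KO LT-HSC than in KO MPP3, and 1 was higher and 1 lower in WT. Rab27b, which serves dense granule formation, was higher by 3.84 ± 0.712 in KO LT-HSC than in KO MPP3 (adjusted p = 0.00442), and Slc35d3, also needed for dense granules, was lower, with -2.52 ± 0.573 in KO (adjusted p = 0.0198) and -3.88 ± 0.738 in WT (adjusted p = 0.0114).

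Of the 16 megakaryocyte transcription factors, 3 were higher in KO LT-HSC than in KO MPP3 and 1 in WT, and 2 were higher in MPP2 than in MPP3 in each genotype. The shares of all genes tested called higher were 1.56% and 0.720% for LT-HSC over MPP3 in KO and WT. For MPP2 over MPP3 they were 0.526% and 0.981%. Gata1, which drives the megakaryocytic and erythroid lineages, averaged 195 ± 169 CPM in WT MPP2 and 2.09 ± 1.70 CPM in WT MPP3, a log2 fold change of 6.54 ± 1.49 (adjusted p = 0.0422). In KO it averaged 230 ± 155 CPM in MPP2 and 11.2 ± 20.7 CPM in MPP3 and missed the threshold, with 4.36 ± 1.33 (adjusted p = 0.150). In the MPP2 libraries titled 162 to 211 against those titled 52 to 63, 4 of the 16 factors were higher, among them Gata2 (1.35 ± 0.228) and Gfi1b (1.92 ± 0.337). Of all genes tested, 1.80% were called higher and 4.51% lower in this comparison by title number. Of the receptors and signalling genes, 7 were higher and 1 lower there, led by Rap1b, a switch of integrin activation, with 1.54 ± 0.179 (adjusted p = 2.52e-04). Of the 17 genes of the proplatelet cytoskeleton and granule biogenesis, 3 were higher and 0 lower. Of the 13 granule cargo genes, 0 were called in this comparison, and their median log2 fold change was -0.08, against -0.11 over all genes.

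The likeness of the 10 genes to each other was described by Pearson's r over the 21 libraries of log2(CPM + 1), each gene against the mean of the other 9. It ran from 0.621 for Mmrn1 through 0.763 for Gp1bb and 0.818 for Ppbp to 0.951 for Pf4. With the mean of each population removed, it ran from 0.456 to 0.917 for the other 9 genes and was -0.205 for Mmrn1. The libraries share populations and title numbers, so these values describe the data set only.

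Of 10081 other genes with a mean of at least 5 CPM, those most like the mean of the 10 genes were Cd9 (r = 0.967), Treml1 (0.961), Slamf1 (0.952), Tmem40 (0.949), Ptpn14 (0.948) and Khk (0.947). Treml1, a receptor of platelet granules, averaged 29.3 ± 8.52 CPM in KO LT-HSC, 13.2 ± 0.398 CPM in WT LT-HSC, 43.5 ± 34.8 CPM in KO MPP2, 36.7 ± 30.2 CPM in WT MPP2, 0.364 ± 0.416 CPM in KO MPP3 and 1.41 ± 1.22 CPM in WT MPP3. Cd9, a tetraspanin of platelets and stem cells, averaged 262 ± 5.40 CPM in KO LT-HSC, 241 ± 32.7 CPM in WT LT-HSC, 224 ± 97.8 CPM in KO MPP2, 282 ± 179.5 CPM in WT MPP2, 56.4 ± 15.8 CPM in KO MPP3 and 67.2 ± 1.99 CPM in WT MPP3. Slamf1 encodes CD150, by which LT-HSC and MPP2 were sorted from MPP3.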

How the data were processed

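RNA was measured in 21 libraries of 6 groups, as the labels give them. The values the authors deposited are raw counts of reads for each gene. STAR and the build mm10 are named in the submitters' processing notes. How reads were counted, with which annotation, and how strand and shared reads were treated is not given in the sources used here. Of 54446 gene IDs, 54409 matched GENCODE M21 without the version. The table held 0 columns of other samples, and 0 pairs of libraries had identical counts.

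The tests used edgeR 4.0.16 in R 4.3.3 (robust quasi-likelihood, TMM factors, filterByExpr with a minimum count of 10) in 1 fit of all 21 libraries, with Benjamini-Hochberg adjustment over 21100 genes and a threshold of 0.05. Each SE was derived from the log2 fold change and its F statistic, and gave the 95% intervals by the normal quantile. These intervals are therefore somewhat narrower than the F test would give. The floor of 3 counts covers counting error alone, as the reads carry no stated molecular identifiers. Alternatives were DESeq2 1.42.0, limma 3.58.1 (voom with quality weights), other factors and filters, blocks, title numbers and libraries left out.

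The members, the lists and the comparison by title number were chosen with earlier results of these data known. The text names the 10 members, Phf6, up to 3 genes of smallest p per list and comparison with a mean of at least 5 CPM, some of which are not reported here, and the 6 genes most like the members. Marker genes of the sort and of other cells are given as checks, and Sept5 for its overlap with Gp1bb.

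WT and KO mice were studied in pairs according to the series' design text, and libraries of 1 genotype and replicate number carry consecutive title numbers, so the numbers were taken to mark mice, with KO LT-HSC 3 (title number 212) placed with KO mouse 4. As a check, deviations from group means were correlated. Same-numbered KO and WT libraries gave 0.327 to 0.381 in MPP2, 0.134 to 0.260 in MPP3 and 0.0645 to 0.0734 in LT-HSC. Differently numbered ones gave -0.426 to 0.418, -0.233 to 0.237 and -0.0734 to 0.00277 in the same order. The 2 WT LT-HSC libraries deviate from their mean by mirrored amounts, so their values are not independent. Same-numbered libraries of different populations gave -0.0605 to 0.565 in KO and -0.0255 to 0.218 in WT. Differently numbered ones gave -0.482 to 0.237 in KO and -0.188 to 0.0936 in WT. Libraries of the same number also share a set of title numbers, so the check cannot show that the numbers mark mice.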

Additional observations from a re-analysis of the deposited data

Results flagged for a closer look

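Dixon's test was run on each of the 10 genes in each of the 4 groups of 4 libraries, 40 groups in all, and in 8 of them 1 library stood apart from the other 3 (chance gives about 1 in 20 groups). That rate assumes normally distributed values, whereas the test used CPM without a log scale, so the 8 cannot be judged by it. It does not hold either where the other 3 libraries were at 0, as for Ppbp and Gp1bb in KO MPP3, since any count then stands apart. For Ppbp in WT MPP3, the other 3 libraries had 0 or 1 count. In MPP2 this was Ppbp in WT MPP2 3, with 227.4 CPM against 5.804 CPM in the next library. The other 7 lay in MPP3, where most levels are low. They were Pf4 in KO MPP3 2 (14.28 CPM), Ppbp in KO MPP3 4 (2.168 CPM) and in WT MPP3 1 (2.649 CPM), Itga2b in WT MPP3 4 (35.45 CPM), Gp1bb in KO MPP3 2 (0.2276 CPM, 4 counts), Gp9 in KO MPP3 4 (15.82 CPM) and Mmrn1 in WT MPP3 2 (67.79 CPM). Each was the highest library of its group. KO MPP3 2, which holds Pf4 and Gp1bb of these, is the library with 10.3% of its counts on rRNA genes. The cause of these values was not tested.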

How the results depend on the processing

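Of 1964 values of single platelet genes under the alternatives, 1656 kept their side of the threshold and, where they had one, their direction. A further 125 lost and 69 gained a call, and 114 changed sign with neither value called. The 1656 include the test of whether the KO effect differed between populations, which has no direction and called no member under any alternative. No called value changed sign. KO against WT gave 0 of the 10 genes under every alternative run. The counts of genes called are lower or higher with the setting as follows, out of 10. How many of all genes each setting called is not given here beyond the ranges at the end, and these ranges are wide. A count of members can therefore move because a setting calls more or fewer genes of the whole table. WT LT-HSC against WT MPP3 gave 3 in the fit reported, and 5 with DESeq2, voom, a term for the title numbers, within 52 to 64 or without the 3 libraries with over 10% of immunoglobulin or rRNA counts, which were chosen after the data were seen, and 7 with only the groups compared. WT MPP2 against WT MPP3 gave 5, and 3 without a filter on low counts or with only the groups compared, 9 with DESeq2, 2 with voom, 9 within 162 to 212 and 0 within 52 to 64. KO MPP2 against KO MPP3 gave 5, and 2 without the filter or without the 3 libraries, 8 with DESeq2, 0 with only the groups compared, 8 within 162 to 212 and 0 within 52 to 64. KO LT-HSC against KO MPP3 gave 6, and 3 without the 3 libraries. LT-HSC against MPP2 gave 1 in each genotype, 0 in KO within 162 to 212, and 2 in each within 52 to 64. The count within 162 to 212 sets 1 LT-HSC library against MPP2, assumes that it varies like the other groups, and says nothing about stability. The causes were not tested.

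With the replicate number as a block, WT LT-HSC against WT MPP3 gave 7 genes, and with the mouse as the block 5. The blocks moved no other count of called members by over 1.5 times, and KO against WT stayed at 0.

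Without 1 library at a time, the members called ran from 0 to 1 for WT LT-HSC against WT MPP2, 1 to 2 for WT LT-HSC against WT MPP3, 0 to 6 for WT MPP2 against WT MPP3, 1 to 1 for KO LT-HSC against KO MPP2, 3 to 4 for KO LT-HSC against KO MPP3, 1 to 7 for KO MPP2 against KO MPP3 and 6 to 7 for the MPP2 title numbers. Over the whole table, the genes called ran over all alternatives from 0 to 28 (1 in the fit reported), 0 to 35 (3) and 0 to 36 (2) for KO against WT in LT-HSC, MPP2 and MPP3. They ran from 0 to 1448 (133), 52 to 1656 (232) and 2 to 921 (253) in WT for LT-HSC against MPP2, LT-HSC against MPP3 and MPP2 against MPP3, from 116 to 1738 (381), 298 to 1538 (558) and 6 to 931 (187) for the same pairs in KO, and from 563 to 2723 (1331) for the MPP2 title numbers.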
